A study of Sus scrofa with 12 samples.

Results

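NF-kB is a family of dimeric transcription factors. The genes followed here, 10 in all, belong to this family and its feedback circuit: the 5 subunit genes NFKB1, NFKB2, RELA, RELB and REL, the IkB genes NFKBIA, NFKBIE and NFKBIZ, and the feedback genes TNFAIP3 and BIRC3. They were chosen by name, as the rows of the count table whose Ensembl identifiers carry these pig symbols. All 10 were found among 21153 genes, each as a single row, and all 10 passed the filter on low counts that left 12444 genes for testing.

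RNA was sequenced from cultured smooth muscle cells of the pig (Sus scrofa) coronary artery. The groups were PDGF-BB+S100A4 (30 ng/ml and 1 µg/ml together), S100A4 (1 µg/ml), PDGF-BB (30 ng/ml) and control (neither protein), each with 3 libraries and 4 h of treatment. PDGF-BB is a homodimer of platelet-derived growth factor B chains and a mitogen for smooth muscle cells, and S100A4 is a small protein that binds calcium and can signal from outside the cell (the design text writes oS100A4). All groups shared primary cells labelled as differentiated and contractile, at passage 6 to 11, plated at 60 cells/mm2 in medium with 10% fetal calf serum 24 h before treatment. Serum was thus part of the medium of control cells too. The design text names 3 animals as the source of the cells, but no label ties a library to an animal.

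In resting cells IkB proteins hold NF-kB dimers in the cytoplasm. Receptors such as those for tumour necrosis factor, interleukin 1 and bacterial products switch on a kinase complex that marks IkB for destruction, and the freed dimers enter the nucleus. Several genes they turn on encode their own inhibitors and precursors, which ends or reshapes the response. In the vessel wall the pathway is known for switching on adhesion molecules and chemokines that draw in leukocytes.

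NFKB1 (ENSSSCG00000030957, chromosome 8, 118391010 to 118478927) and NFKB2 (ENSSSCG00000010580, chromosome 14, 113406412 to 113414177) encode precursors that are cut to short DNA-binding subunits. RELA (ENSSSCG00000012981, chromosome 2, 6594869 to 6602684), RELB (ENSSSCG00000038879, chromosome 6, 51444670 to 51480350) and REL (ENSSSCG00000008388, chromosome 3, 80861862 to 80912233) encode the subunits that activate transcription. NFKBIA (ENSSSCG00000001952, chromosome 7, 64508119 to 64510754) and NFKBIE (ENSSSCG00000001703, chromosome 7, 39255078 to 39266085) encode cytoplasmic inhibitors. NFKBIZ (ENSSSCG00000011951, chromosome 13, 157261419 to 157273119) encodes a nuclear IkB protein that in mouse cells is needed for part of the late inflammatory genes. TNFAIP3 (ENSSSCG00000004154, chromosome 1, 26474158 to 26489771) encodes A20, a ubiquitin-editing enzyme that shuts off signals to the kinase complex. BIRC3 (ENSSSCG00000027529, chromosome 9, 33003570 to 33020252) encodes a ubiquitin ligase that acts at tumour necrosis factor receptors and in the degradation of the kinase MAP3K14. Positions are whole genes of RefSeq on Sscrofa11.1, the build in the submitters' processing notes. In that table REL overlaps PUS10 by 1912 bases and NFKBIE overlaps TMEM151B by 579 bases. PUS10 had 147 to 268 counts per library and TMEM151B 18 to 65. RefSeq also places a long non-coding RNA gene over part of NFKB2, of RELB and of NFKBIA. The use of strand in counting is not given in the sources used here, so reads from such overlaps cannot be assigned.

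Libraries held 21455021 to 32448438 counts, and the 10 genes had between 271 and 5946 counts in each. Levels are given as CPM, each count as a share of its library's total (scaled by TMM; 1 CPM stands for 21.5 counts in the smallest library), and are compared between samples but not between genes, since they are not divided by transcript length. Changes are log2 fold changes ± SE from edgeR's quasi-likelihood test on the 4 group means, here called the unpaired fit, with p-values adjusted by Benjamini-Hochberg over all 12444 genes and a threshold of 0.05. Libraries with the same replicate number resembled each other across treatments, so a second fit, blocked by replicate number, is given where its call differs. The 3 comparisons with control share the same 3 control libraries. The smooth muscle markers were present, with ACTA2 at 6550 to 17500 CPM. TAGLN, usually abundant in this cell type, had 83 to 213 counts per library, and MYOCD 71 to 188. The 4 libraries of replicate 2 stood apart, with 9740 to 11600 CPM summed over 9 smooth muscle markers, against 20700 to 25700 CPM in the 8 others. Over the 12 libraries 7 fibroblast markers summed to 1020 to 1700 CPM and 5 pericyte markers to 312 to 1920 CPM. Leukocyte markers PTPRC, CD3E and MS4A1 were at 0 counts in every library, and the 9 leukocyte and macrophage markers summed to 7.51 to 11.9 CPM. Of these CD14 had 138 to 249 counts (5.48 to 9.58 CPM), CD68 15 to 32 counts and CSF1R 14 to 36. No comparison called any of the 3 tested leukocyte and macrophage markers unpaired. With the block 1 was lower with PDGF-BB and 1 with PDGF-BB+S100A4, each against control. In RNA from whole cultures, fewer cells of a type and less RNA per cell cannot be told apart.

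**Figure D1:**
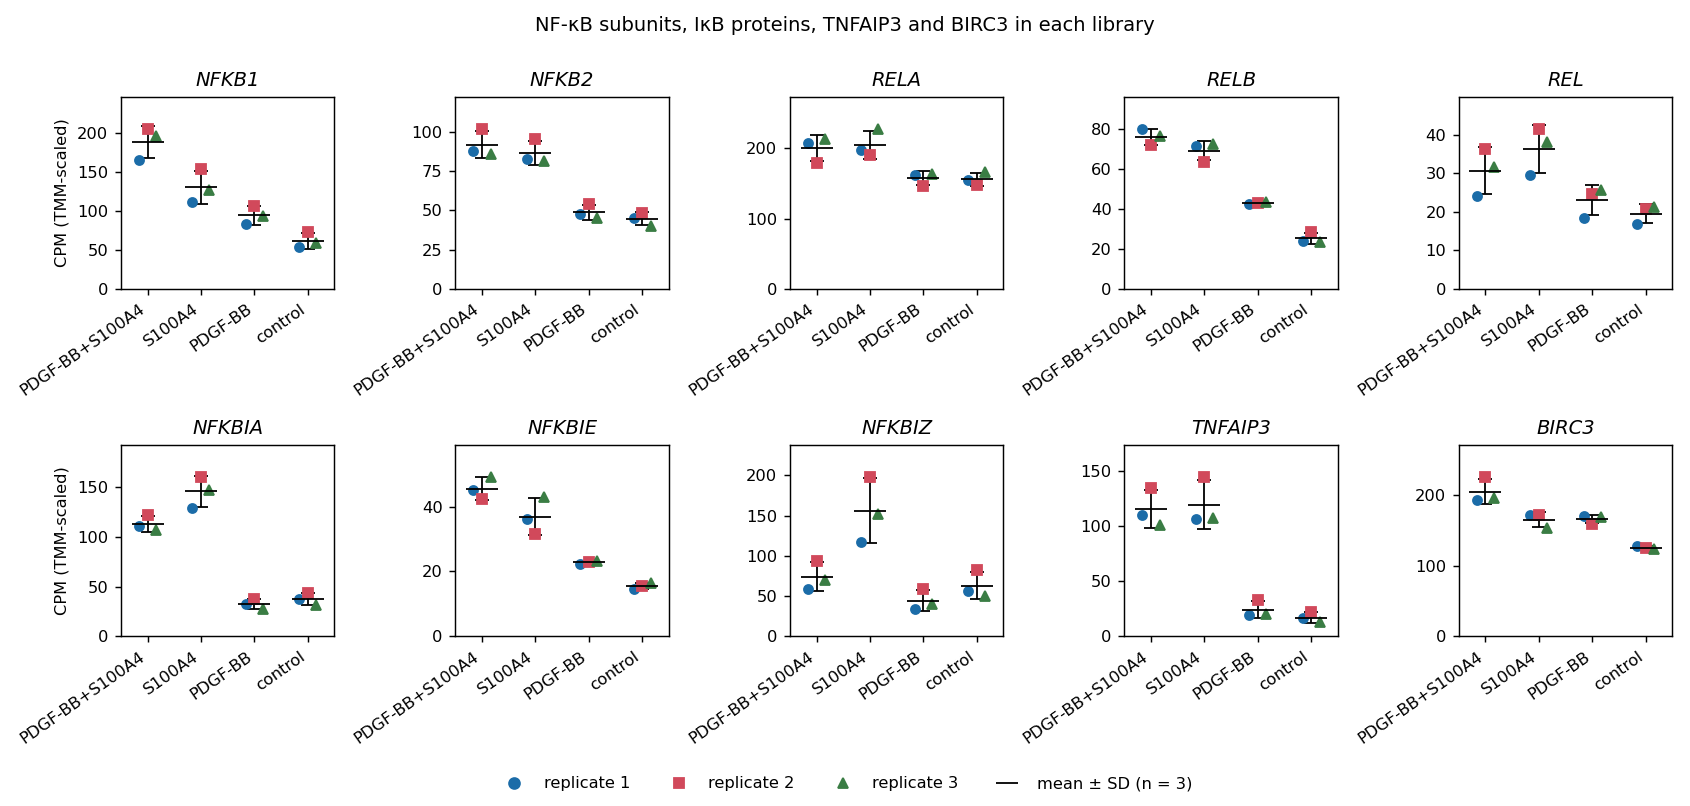
Level of each gene in each library, in CPM on a linear axis from 0, with points marked by replicate number and bars for the mean ± SD of 3 libraries per group. For TNFAIP3 the 6 libraries with S100A4 lie between 101 and 145 CPM and the 6 without it between 12.8 and 33.3 CPM.

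S100A4 raised genes on both sides of the circuit, subunits and inhibitors alike. In the comparison of S100A4 with control, 6 of the 10 genes rose (NFKB1, NFKB2, RELB, NFKBIA, NFKBIE and TNFAIP3) and none fell, against 0.554% of all tested genes called higher and 0.00804% called lower. With the replicate block all 10 rose, against 6.46% higher and 4.28% lower over all tested genes. The lowest library with S100A4 was above the highest control library for all 10 genes, which held for 5.68% of tested genes, with 4.04% apart in the other direction. The median log2 change was 1.17 over the 10 genes and −0.02 over all genes tested. None of 9 smooth muscle markers passed unpaired in this comparison and 4 were lower with the block. None of 5 tested endothelial markers and none of 5 pericyte markers passed in either fit. Of 7 fibroblast markers 3 were higher and 1 lower with the block, and none passed unpaired. The part of these markers in the changes was not tested.

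TNFAIP3 moved most. Its level was 106, 145 and 108 CPM in S100A4 replicates 1, 2 and 3, against 16.4, 22.1 and 12.8 CPM in control replicates 1, 2 and 3. Every treated library was several times above every control library, and replicate 2 was the highest in both groups. The change was 2.81 ± 0.27 (6.99-fold, adjusted p = 0.00118), the 25th largest rise of the 12444 genes.

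NFKBIA, the inhibitor whose resynthesis ends the first wave of NF-kB activity, followed. It was measured at 130, 161 and 147 CPM in S100A4 libraries and at 37.2, 43.9 and 31.5 CPM in control libraries. The groups were far apart, and the change was 1.96 ± 0.15 (3.88-fold, adjusted p = 0.000402). NFKBIE, whose product inhibits RELA- and REL-containing dimers, averaged 36.8 ± 5.71 CPM with S100A4 and 15.6 ± 0.88 CPM in control (SD, n = 3 each). Its change was 1.24 ± 0.11 (adjusted p = 0.00078).

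Among the subunits RELB changed most with S100A4. Its libraries had 71.1, 63.5 and 72.4 CPM with S100A4, against 24.0, 28.6 and 23.5 CPM in control (1.44 ± 0.09, 2.72-fold, adjusted p = 0.000168). Replicate 2 was the highest in control and the lowest with S100A4. NFKB1 stood at 112, 153 and 127 CPM with S100A4, against 53.2, 72.6 and 58.3 CPM in control (1.09 ± 0.16, adjusted p = 0.0116). NFKB2 averaged 86.5 ± 7.52 CPM with S100A4 and 44.7 ± 4.29 CPM in control (0.95 ± 0.11, adjusted p = 0.00255). Of the precursor genes NFKB1 was the more spread within a group, and for both no library of one group reached the other group.

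In edgeR with all libraries, RELA, REL, NFKBIZ and BIRC3 passed with the block and not in the unpaired fit. Unpaired, BIRC3 passed with a stricter filter (adjusted p = 0.0404) and NFKBIZ without replicate 2 of all groups (adjusted p = 0.021), and DESeq2 called all 10 genes without a block. RELA averaged 205 ± 19.6 CPM with S100A4 and 156 ± 9.08 CPM in control (0.39 ± 0.09, adjusted p = 0.155, block adjusted p = 2.95e-05). For REL the libraries had 29.6, 41.5 and 38.0 CPM with S100A4, against 16.8, 20.7 and 21.2 CPM in control (0.90 ± 0.19, adjusted p = 0.0924, block adjusted p = 4.25e-07). NFKBIZ had 118, 199 and 152 CPM with S100A4, against 56.5, 82.6 and 50.1 CPM in control. Replicate 2 was the highest in both groups, and the change was 1.31 ± 0.28 (adjusted p = 0.105, block 1.30 ± 0.07 and adjusted p = 3.93e-08). BIRC3 was at 172, 172 and 153 CPM with S100A4 and at 128, 125 and 124 CPM in control (0.40 ± 0.08, adjusted p = 0.0545, block adjusted p = 0.000409). In the unpaired fit no gene of the 10 passed without replicate 1 of all groups or without replicate 3 of all groups (10 of 10 at an unadjusted p under 0.05 in each case), whereas the fit with the block kept 10 calls in each. Over all tested genes the unpaired fit called 1 of 12471 without replicate 1 and 0 of 12464 without replicate 3. The block called 612 and 608. NFKB1 also did not pass without control replicate 1 (adjusted p = 0.0751) or without control replicate 3 (adjusted p = 0.0823).

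**Figure D2:**
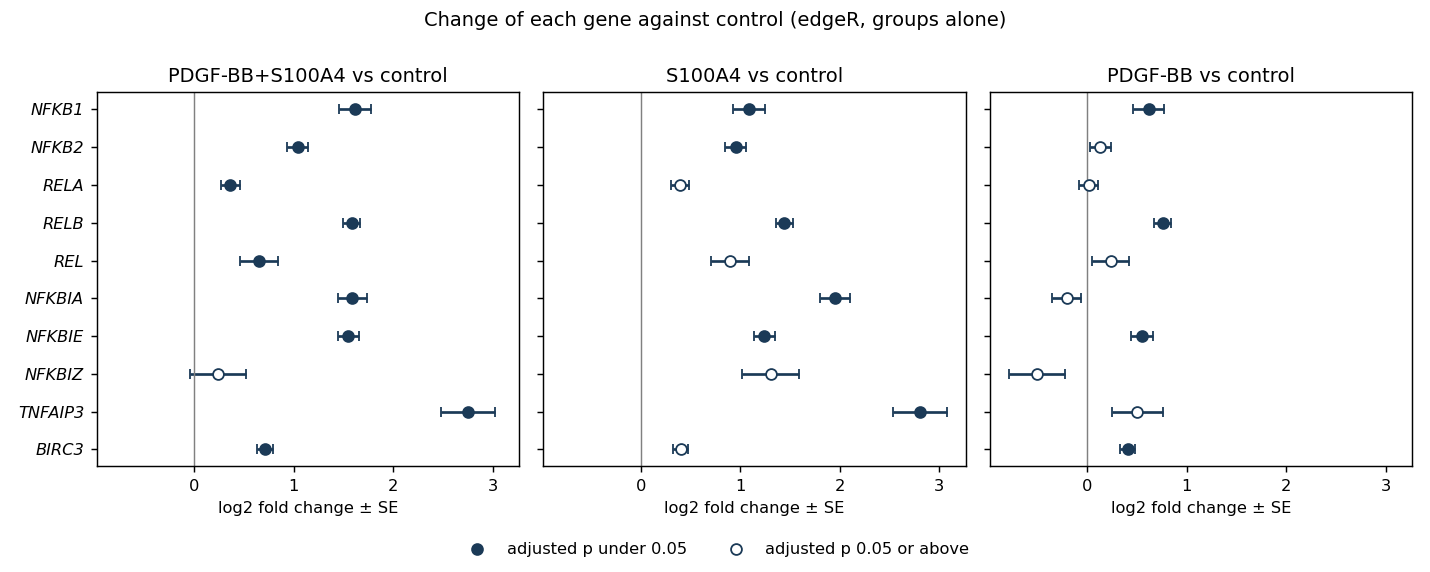
Log2 fold change ± SE of each gene against control in the 3 treatments, from the unpaired fit with 3 libraries per group. Filled points passed at an adjusted p under 0.05. TNFAIP3 lies at 2.76 with PDGF-BB+S100A4, 2.81 with S100A4 and 0.50 with PDGF-BB.

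PDGF-BB raised fewer of the genes. Against control it raised 4 genes, RELB, NFKB1, NFKBIE and BIRC3, and lowered none, beside 9.09% of all tested genes called higher and 5.62% called lower. The feedback inhibitors with the largest S100A4 response did not pass. With the block 7 genes rose and 2 fell, against 24.3% and 24.5% of all tested genes. The groups were apart for 4 genes (NFKB1, RELB, NFKBIE and BIRC3), all higher, beside 16.3% of tested genes higher and 13.5% lower. The median change was 0.32 over the 10 genes and −0.02 over all tested genes.

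RELB had 42.4, 42.8 and 43.3 CPM with PDGF-BB, against 24.0, 28.6 and 23.5 CPM in control (0.76 ± 0.09, 1.69-fold, adjusted p = 0.000471). The treated libraries were nearly equal. NFKB1 was at 82.9, 106 and 93.4 CPM with PDGF-BB and at 53.2, 72.6 and 58.3 CPM in control (0.62 ± 0.16, adjusted p = 0.0249). The groups did not overlap, but the NFKB1 call ended when PDGF-BB replicate 2 or 3 or control replicate 1 or 3 was left out (adjusted p = 0.0858, 0.0612, 0.0992 and 0.088). NFKBIE averaged 22.8 ± 0.51 CPM with PDGF-BB and 15.6 ± 0.88 CPM in control (0.55 ± 0.11, adjusted p = 0.00719). BIRC3 had 171, 160 and 170 CPM with PDGF-BB, against 128, 125 and 124 CPM in control (0.41 ± 0.08, adjusted p = 0.00559). For BIRC3, S100A4 against PDGF-BB gave −0.01 ± 0.08 (adjusted p = 0.986), a sign that flipped with DESeq2, RLE or upper-quartile scaling and a stricter filter.

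NFKBIA and NFKBIZ fell with PDGF-BB in the fit with the block and did not pass unpaired. NFKBIA had 32.6, 37.5 and 27.4 CPM with PDGF-BB, against 37.2, 43.9 and 31.5 CPM in control. The groups overlapped, but each treated library was below the control library of its number (−0.21 ± 0.14, adjusted p = 0.424, block −0.21 ± 0.08 and adjusted p = 0.0341). The NFKBIA call with the block ended without replicate 1 (adjusted p = 0.0999) or replicate 2 (adjusted p = 0.118), whereas that of NFKBIZ stood without any 1 replicate number. NFKBIZ was at 34.1, 59.5 and 39.7 CPM with PDGF-BB and at 56.5, 82.6 and 50.1 CPM in control, again lower in all 3 numbers (−0.51 ± 0.28, adjusted p = 0.299, block −0.52 ± 0.08 and adjusted p = 8.33e-05). TNFAIP3 differed in the other direction. It had 19.1, 33.3 and 20.3 CPM with PDGF-BB, against 16.4, 22.1 and 12.8 CPM in control (0.50 ± 0.26, adjusted p = 0.251, block adjusted p = 0.000581). REL (0.24 ± 0.19) and NFKB2 (0.13 ± 0.11) likewise rose only with the block (block adjusted p = 0.00944 and 0.026). The NFKB2 call with the block ended without any 1 of the replicate numbers (highest adjusted p = 0.164), and that of REL without replicate 3 (adjusted p = 0.0907). RELA passed in neither fit, at 157.5 ± 9.57 CPM with PDGF-BB and 156 ± 9.08 CPM in control (0.01 ± 0.09), and its sign turned with upper-quartile scaling or a stricter filter. Of 5 tested endothelial markers 1 rose with PDGF-BB, the transcription factor gene ERG (1.23 ± 0.30, adjusted p = 0.022), and 2 with the block. The 6 of 8 listed that the table holds summed to 121 to 220 CPM with PDGF-BB and 55.3 to 140 CPM in control, and ERG alone ranged over all libraries at 35.7 to 142 CPM. Of 9 smooth muscle markers 1 fell unpaired, and with the block 1 rose and 5 fell. With the block 2 of 7 fibroblast markers rose and 3 fell, and 1 of 5 pericyte markers rose and 2 fell. No fibroblast or pericyte marker passed unpaired. The part of these markers in the changes was not tested. Without replicate 1 of all groups none of the 10 passed in the unpaired fit (5 at an unadjusted p under 0.05, and 7 called with the block), and without replicate 3 of all groups 2 passed (RELB and NFKBIE, and 7 with the block). Over all tested genes these counts were 131 of 12471 and 377 of 12464 unpaired, and 4372 and 4446 with the block.

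**Figure D3:**
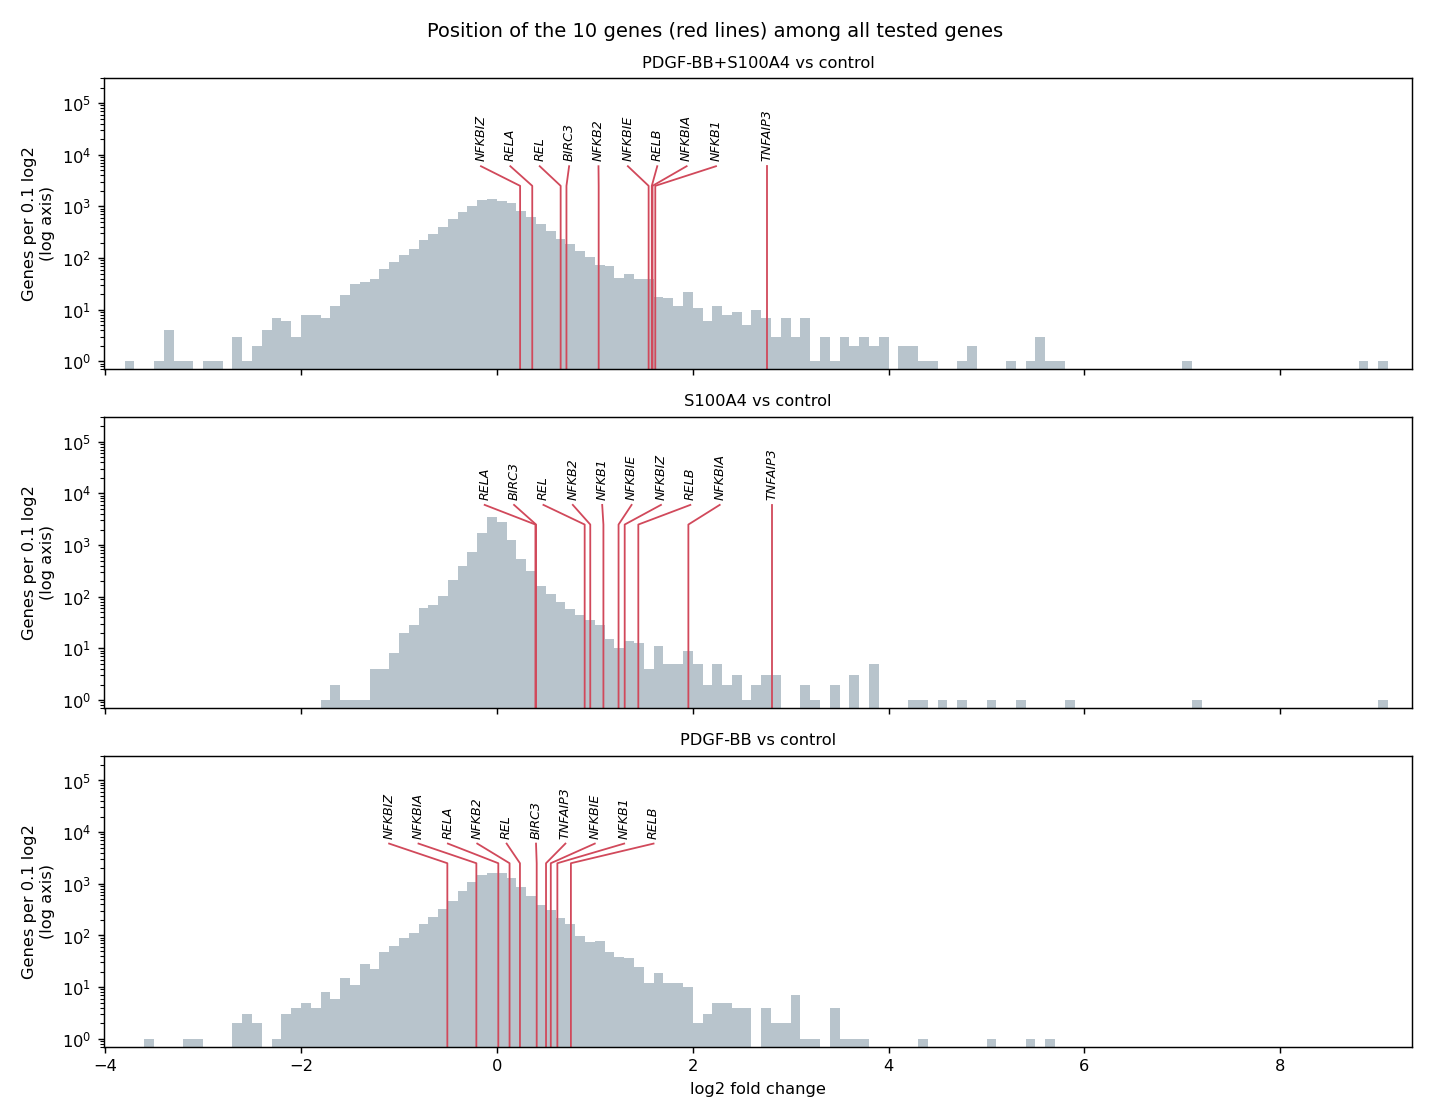
Log2 fold changes of all 12444 tested genes against control in each treatment (grey bars, number of genes per step on a log axis), with the 10 genes as red lines. With S100A4 all 10 lie to the right of the median of −0.02, at 0.39 to 2.81, while with PDGF-BB they spread from −0.51 to 0.76.

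With PDGF-BB+S100A4 against control, all but NFKBIZ rose (9 of 10) and none fell, beside 13.2% of all tested genes called higher and 8.75% called lower. With the block all 10 rose, against 27.5% higher and 28.6% lower over tested genes. The groups were apart, with every treated library higher, for 9 genes, beside 19.8% of tested genes higher and 15.8% lower. The median change was 1.29 over the 10 genes and −0.03 over all tested genes. TNFAIP3 had 111, 135 and 101 CPM with both proteins, against 16.4, 22.1 and 12.8 CPM in control (2.76 ± 0.27, 6.76-fold, adjusted p = 0.000113). NFKB1 had 165, 205 and 195 CPM with both proteins, against 53.2, 72.6 and 58.3 CPM in control (1.62 ± 0.16, 3.07-fold, adjusted p = 0.000113). RELB had 79.7, 71.9 and 76.1 CPM with both proteins, its highest level of the 4 groups (1.58 ± 0.09 against control, adjusted p = 8.01e-06).

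NFKBIA (1.59 ± 0.15), NFKBIE (1.55 ± 0.11), NFKB2 (1.04 ± 0.11) and BIRC3 (0.71 ± 0.08) also rose with both proteins, at adjusted p of 8.68e-05, 1.93e-05, 0.000164 and 0.000176. RELA (0.36 ± 0.09, adjusted p = 0.0203) and REL (0.65 ± 0.19, adjusted p = 0.0329) passed by a small margin in the unpaired fit. With the block their adjusted p were 7.43e-06 and 1.52e-06. Unpaired, RELA was at the threshold with upper-quartile scaling (adjusted p = 0.05), and REL did not pass in a fit of only these groups (adjusted p = 0.0539). Leaving out any of 4 of the 6 libraries ended the unpaired RELA call (highest adjusted p = 0.0767), and any of 5 of the 6 ended that of REL (highest adjusted p = 0.121). Those libraries were control replicates 1 and 2 and PDGF-BB+S100A4 replicates 1 and 3 for RELA, and all but PDGF-BB+S100A4 replicate 1 for REL. NFKBIZ was at 59.3, 93.6 and 70.3 CPM with both proteins and at 56.5, 82.6 and 50.1 CPM in control. These groups overlapped (0.24 ± 0.28, adjusted p = 0.63), and only the fit with the block called the difference (0.24 ± 0.08, adjusted p = 0.0162). That call ended without replicate 3 of all groups (adjusted p = 0.167). Endothelial markers summed to 133 to 208 CPM with both proteins and 55.3 to 140 CPM in control, with ERG the 1 of 5 that passed (1.27 ± 0.30). Of 9 smooth muscle markers 1 fell unpaired, and with the block 1 rose and 4 fell. Of 7 fibroblast markers 1 rose unpaired, and with the block 3 rose and 3 fell. Of 5 pericyte markers none passed unpaired, and with the block 1 rose and 1 fell. The part of these markers was not tested.

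Adding S100A4 to PDGF-BB raised NFKB1, NFKB2, RELB, NFKBIA, NFKBIE and TNFAIP3, 6 of 10 genes with none lower, beside 0.273% of all tested genes called higher and 0% called lower. TNFAIP3 changed by 2.25 ± 0.26 (4.77-fold, adjusted p = 0.00634), NFKBIA by 1.80 ± 0.15 (3.48-fold, adjusted p = 0.00113) and NFKB1 by 1.00 ± 0.16 (2-fold, adjusted p = 0.0371). NFKBIE changed by 1.00 ± 0.11, NFKB2 by 0.91 ± 0.11 and RELB by 0.83 ± 0.09. With the block all 10 rose, against 5.11% higher and 2.03% lower over tested genes. The groups did not overlap for 8 of the 10, all higher, beside 5.86% of tested genes higher and 2.84% lower. The unpaired count was 3 without PDGF-BB replicate 1 and 3 without PDGF-BB replicate 3, beside 8 of 12591 and 12 of 12594 tested genes. It was 0 without replicate 1 or replicate 3 of all groups, with 8 genes at an unadjusted p under 0.05 and 10 called with the block in both cases. Over all tested genes the unpaired fit called 1 of 12471 and 0 of 12464 in these cases, and the block 379 and 326. The NFKB1 call ended when any 1 of the 6 libraries was left out (highest adjusted p = 0.222). NFKB2 and TNFAIP3 lost theirs without PDGF-BB replicate 1 (adjusted p = 0.0591 for each) or replicate 3 (adjusted p = 0.0538 for each). No smooth muscle, endothelial or pericyte marker passed in either fit of this comparison. Of 7 fibroblast markers 2 were higher with the block and none passed unpaired. Their part in the changes was not tested.

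S100A4 was also set directly against PDGF-BB. Of the 10 genes 8 were higher with S100A4, all but NFKB1 and BIRC3, beside 4.67% of all tested genes called higher and 6.44% called lower. With the block 9 were higher, against 20.6% higher and 22.5% lower over tested genes. The groups were apart for 9 genes, all higher, beside 12.2% of tested genes higher and 14.2% lower. TNFAIP3 (2.30 ± 0.27, adjusted p = 0.00068), NFKBIA (2.16 ± 0.15, adjusted p = 0.000102) and NFKBIZ (1.81 ± 0.29, adjusted p = 0.00351) differed most. NFKBIA had 130, 161 and 147 CPM with S100A4, against 32.6, 37.5 and 27.4 CPM with PDGF-BB. NFKB2 (0.82 ± 0.11), NFKBIE (0.69 ± 0.11) and RELB (0.69 ± 0.09) differed less. RELA (0.38 ± 0.09, adjusted p = 0.0277) and REL (0.66 ± 0.19, adjusted p = 0.0497) were near the threshold in the unpaired fit. With the block their adjusted p were 7.77e-06 and 1.55e-06. Unpaired, each lost its call when any of 5 of the 6 libraries was left out (highest adjusted p = 0.104 and 0.165). The exceptions were S100A4 replicate 2 for RELA and S100A4 replicate 1 for REL. The REL call also ended with RLE scaling (adjusted p = 0.0527), without the filter (adjusted p = 0.0654) and in a fit of only these groups (adjusted p = 0.102), and that of RELA in the last of these (adjusted p = 0.0917). NFKB1 had 112, 153 and 127 CPM with S100A4 and 82.9, 106 and 93.4 CPM with PDGF-BB (0.47 ± 0.16, adjusted p = 0.0859, block adjusted p = 2.55e-06). The unpaired count was 0 without replicate 1 of all groups and 3 without replicate 3 of all groups (9 and 8 at an unadjusted p under 0.05), and 9 with the block in both cases. Over all tested genes the counts were 5 of 12471 and 176 of 12464 unpaired, and 3628 and 3742 with the block. Endothelial markers summed to 59.6 to 150 CPM with S100A4 and 121 to 220 CPM with PDGF-BB, with ERG lower (−1.07 ± 0.30), and of 9 smooth muscle markers 5 were higher and 2 lower with the block. With the block 2 of 7 fibroblast markers were higher and 2 lower, and 1 of 5 pericyte markers was higher and 1 lower. Their part in these differences was not tested.

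The combination differed from S100A4 alone in both directions, at counts near the shares of all tested genes. NFKB1 and BIRC3 were higher and NFKBIZ was lower, beside 9.45% of all tested genes called higher and 5.51% called lower. With the block 3 genes were higher (NFKBIE in addition) and 3 lower (REL and NFKBIA in addition), against 24.9% and 22.9% of tested genes. The groups did not overlap for 2 higher and 2 lower genes, beside 17% and 12.9% of tested genes. Endothelial markers summed to 133 to 208 CPM with both proteins and 59.6 to 150 CPM with S100A4, with 1 of 5 higher in either fit, and of 9 smooth muscle markers 3 were higher and 4 lower with the block and none passed unpaired. With the block 2 of 7 fibroblast markers were higher and 2 lower, and 1 of 5 pericyte markers was higher and 1 lower. Their part in these differences was not tested.

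NFKBIZ had 59.3, 93.6 and 70.3 CPM with PDGF-BB+S100A4, against 118, 199 and 152 CPM with S100A4. Each library with both proteins was below every library with S100A4 alone. The change was −1.07 ± 0.28 (adjusted p = 0.0305), a level 2.1-fold lower. NFKB1 was at 165, 205 and 195 CPM with PDGF-BB+S100A4 and at 112, 153 and 127 CPM with S100A4 (0.53 ± 0.16, adjusted p = 0.0466). BIRC3 had 194, 227 and 196 CPM with PDGF-BB+S100A4, against 172, 172 and 153 CPM with S100A4 (0.31 ± 0.08, adjusted p = 0.0208). These groups did not overlap for either gene. NFKBIA had 111, 122 and 107 CPM with PDGF-BB+S100A4 and 130, 161 and 147 CPM with S100A4. These groups did not overlap either, although only the fit with the block called NFKBIA lower (−0.37 ± 0.14, adjusted p = 0.127, block adjusted p = 0.000511).

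REL averaged 30.7 ± 6.13 CPM with both proteins and 36.4 ± 6.15 CPM with S100A4 (−0.25 ± 0.19, adjusted p = 0.469, block adjusted p = 0.00445), and NFKBIE averaged 45.6 ± 3.47 CPM with both proteins and 36.8 ± 5.71 CPM with S100A4 (0.31 ± 0.11, adjusted p = 0.0832, block adjusted p = 0.00189). TNFAIP3 was at 116 ± 17.5 CPM with both proteins and 120 ± 22.2 CPM with S100A4, a difference of −0.05 ± 0.25 that passed in neither fit. RELB (0.14 ± 0.08), NFKB2 (0.09 ± 0.11) and RELA (−0.03 ± 0.09) did not pass in either fit. Each of the 3 unpaired calls ended when certain single libraries were left out. With libraries left out the log2 changes stayed at 0.418 to 0.65 (NFKB1), −1.27 to −0.869 (NFKBIZ) and 0.234 to 0.371 (BIRC3). NFKB1 lost its call without any of 5 of the 6 libraries (all but S100A4 replicate 2; highest adjusted p = 0.187), and also with RLE scaling, upper-quartile scaling or no filter. NFKBIZ lost it without PDGF-BB+S100A4 replicates 1 or 3 or S100A4 replicates 2 or 3 (highest adjusted p = 0.118), and BIRC3 without PDGF-BB+S100A4 replicate 2 or S100A4 replicates 1 or 3 (highest adjusted p = 0.0845). Without replicate 1 or replicate 3 of all groups none of the 10 passed unpaired (3 at an unadjusted p under 0.05 in each case). Over all tested genes 10 of 12471 and 274 of 12464 passed unpaired in these cases. NFKB1, NFKBIZ and BIRC3 were called with the block also without replicate 1, 2 or 3 of all groups.

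**Figure D4:**
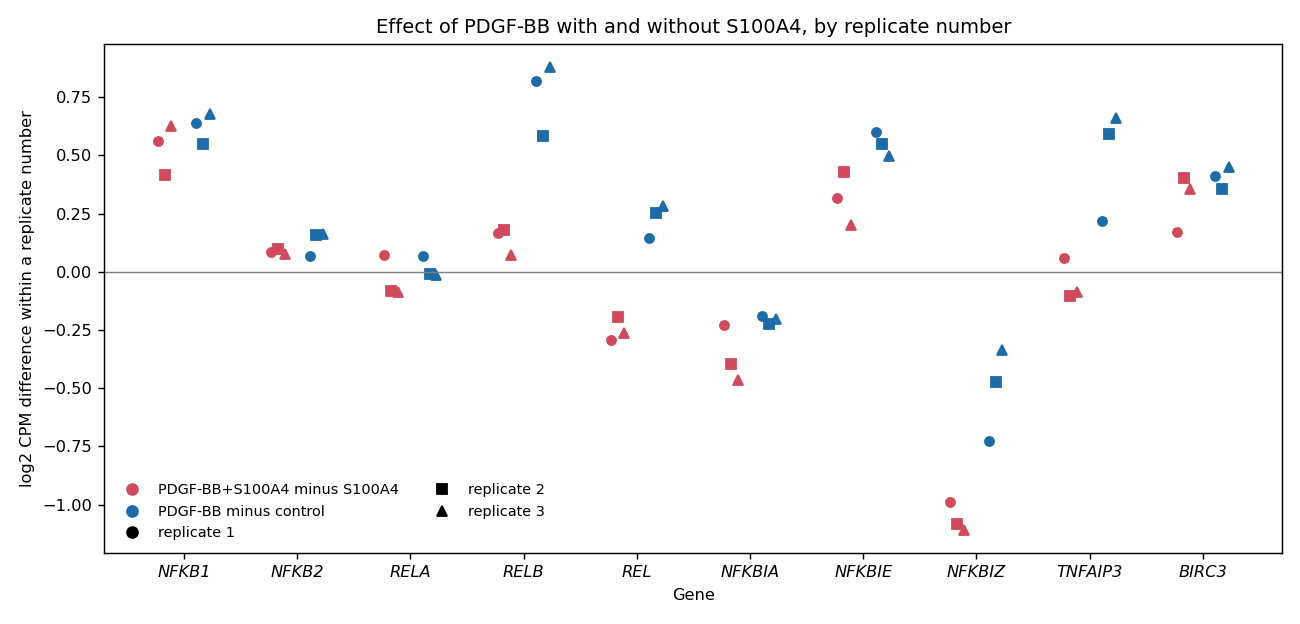
Difference in log2 CPM made by PDGF-BB within each replicate number, with S100A4 present (red) and absent (blue); symbols mark the replicate number. For REL the 3 differences are −0.29, −0.20 and −0.26 with S100A4 present and 0.14, 0.25 and 0.28 with S100A4 absent.

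Whether the proteins act independently on the log2 scale was tested as an interaction, the S100A4 effect with PDGF-BB minus that without it. The estimate was negative for all 10 genes in the unpaired fit, with a median of −0.20 (0.01 over all tested genes). None passed in that edgeR fit (RELB alone at an unadjusted p under 0.05), while without a block DESeq2 called 1 and limma-voom 0. Over all 12444 tested genes the counts were also 0 in that edgeR fit, 1 with DESeq2 and 0 with limma-voom. The signs for NFKB1, NFKB2 and RELA turned positive when certain single libraries were left out. RELB was at −0.62 ± 0.12 (unadjusted p = 0.000451), and it was the only one of the 10 called with the block (−0.61 ± 0.10, adjusted p = 0.0399), beside 0.0964% of all tested genes called lower and 0.0161% called higher. Separate fold changes of RELB multiplied to 4.6, and the combination reached 2.99. This call was absent with the block once replicate 1 or replicate 3 was left out, and stood without replicate 2 (adjusted p = 0.000287), where REL was called too (−0.52, adjusted p = 0.0247). Over all tested genes the block called 1 without replicate 1, 117 without replicate 2 and 2 without replicate 3. For TNFAIP3 the product was 9.9 and the observed fold 6.76 (interaction −0.55 ± 0.36, block adjusted p = 0.123), for NFKBIZ 1.74 and 1.18 (−0.56 ± 0.40, block adjusted p = 0.0812), and for REL 2.19 and 1.57 (−0.48 ± 0.26, block adjusted p = 0.072). NFKB1 came close to the product, with 3.26 expected and 3.07 observed (−0.09 ± 0.22), as did NFKB2 (2.12 and 2.06) and BIRC3 (1.75 and 1.64).

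The order of the levels over the 4 groups fell into a few patterns. NFKB1, NFKB2, RELB and NFKBIE followed the order PDGF-BB+S100A4, S100A4, PDGF-BB, control from high to low. For RELB the first pair of neighbours did not differ in either fit and the next 2 pairs did in both fits. For NFKB2 only the step between S100A4 and PDGF-BB passed in both fits. NFKBIA and NFKBIZ were highest with S100A4, then with both proteins, then in control and lowest with PDGF-BB. Also highest with S100A4 alone were REL, RELA and TNFAIP3, followed by the combination, PDGF-BB and control. The combination against S100A4 passed in neither fit for RELA (−0.03 ± 0.09) and TNFAIP3 (−0.05 ± 0.25), nor did PDGF-BB against control for RELA (0.01 ± 0.09). The signs of these differences turned when certain single libraries were left out. Every step of REL, and the step of TNFAIP3 between PDGF-BB and control, passed with the block only. BIRC3 was highest with both proteins (206 ± 18.4 CPM) and lowest in control (126 ± 2.14 CPM), with 166 ± 10.8 CPM for S100A4 and 167 ± 6.03 CPM for PDGF-BB between them.

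Genes that shared a profile were taken by Pearson correlation of log2 CPM over the 12 libraries after removing the mean of each replicate number. The 12 points are 3 libraries of each of 4 treatments, so these values describe the order of the treatment means. Closest to NFKBIA were USP54 (r = 0.987), PDPN and PNKD (r = 0.986 each), the interferon-gamma receptor chain IFNGR2 (r = 0.985) and RND1 (r = 0.982). USP54 averaged 70.7 CPM with both proteins, 103 with S100A4, 24.8 with PDGF-BB and 24.2 in control. Closest to RELB were the adhesion molecule ICAM4 (r = 0.994), the chemokine AMCF-II (r = 0.985), SFMBT1 (r = 0.985), the necroptosis effector MLKL (r = 0.983) and the adhesion molecule ICAM1 (r = 0.98). ICAM1 averaged 915 CPM with both proteins, 669 with S100A4, 270 with PDGF-BB and 144 in control.

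Of 25 tested genes that carry signals to NF-kB, 8 rose and none fell with PDGF-BB+S100A4, 2 rose with S100A4, and 3 rose and 2 fell with PDGF-BB. With the block these counts were 16 and 4, 6 and 1, and 7 and 6. Over all tested genes the unpaired calls, higher and lower, were 13.2% and 8.75% with both proteins, 0.554% and 0.00804% with S100A4, and 9.09% and 5.62% with PDGF-BB. With the block they were 27.5% and 28.6%, 6.46% and 4.28%, and 24.3% and 24.5%, so the PDGF-BB counts of this list were near the share of all genes. The medians were 0.20, 0.04 and 0.10. With both proteins TICAM1, an adaptor of Toll-like receptors (1.34 ± 0.13), the kinase MAP3K14, which drives NFKB2 processing (1.05 ± 0.11), and IRAK2, a signalling protein at interleukin 1 receptors (0.90 ± 0.17) rose, with TIRAP (0.35 ± 0.07). With S100A4 alone the genes that rose were IRAK2 (1.60 ± 0.17, adjusted p = 0.00166) and MAP3K8, a kinase activated when the NFKB1 precursor is degraded (1.89 ± 0.23, adjusted p = 0.00409). RIPK2 (0.40 ± 0.08) and TIRAP (0.27 ± 0.07) passed with the block only. With PDGF-BB MAP3K8 fell (−1.38 ± 0.24, adjusted p = 0.00349), and MAP3K14 (0.91 ± 0.11), TICAM1 (0.89 ± 0.13) and IRAK1 (0.35 ± 0.08) rose.

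Other IkB proteins and regulators numbered 20 tested genes. Of these 4 rose and 1 fell with PDGF-BB+S100A4, 2 rose with S100A4 and 2 rose with PDGF-BB, with none lower in the single treatments. The block gave 7 higher and 4 lower, 8 and 1, and 6 and 4. Set against the shares of all tested genes just given, the PDGF-BB counts were again near them in both fits, and so were the PDGF-BB+S100A4 counts of this list. NFKBIB, a further cytoplasmic IkB protein, rose in all 3 treatments: 1.13 ± 0.08 with both proteins, 0.60 ± 0.08 with S100A4 and 0.66 ± 0.08 with PDGF-BB. ZC3H12A, an RNase that degrades inflammatory mRNAs, rose by 1.84 ± 0.20 with both proteins and 2.02 ± 0.20 with S100A4. The repressor gene NKRF rose with both proteins (0.91 ± 0.12) and with PDGF-BB (0.77 ± 0.12). TNIP1, a partner of A20, rose with both proteins (1.39 ± 0.19), and with S100A4 only under the block (0.78 ± 0.19), as did IRAK3 (1.39 ± 0.30). TAX1BP1 (−0.37 ± 0.11) and TRAF1 (−0.79 ± 0.29) were lower with PDGF-BB under the block only.

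Among 20 tested target genes of NF-kB outside these regulators, 14 rose and 1 fell with PDGF-BB+S100A4, 6 rose and none fell with S100A4, and 2 rose and 1 fell with PDGF-BB. The medians of 2.34, 1.97 and 0.68 stood beside −0.03, −0.02 and −0.02 over all tested genes. The block gave 18 and 1, 18 and 1, and 10 and 3, beside 27.5% and 28.6%, 6.46% and 4.28%, and 24.3% and 24.5% of all tested genes. Unpaired, 13.2%, 0.554% and 9.09% of all tested genes were called higher, and 8.75%, 0.00804% and 5.62% lower. The 2 targets higher and 1 lower with PDGF-BB were near those unpaired shares. With the block, 10 of the 20 were higher and 3 lower with PDGF-BB, beside 24.3% and 24.5% of all tested genes. ICAM1 rose with both proteins (2.67 ± 0.15), with S100A4 (2.22 ± 0.15) and with PDGF-BB (0.91 ± 0.14). VCAM1 rose with both (3.33 ± 0.54) and with S100A4 (3.69 ± 0.55), as did TNFAIP6 (1.96 ± 0.37 and 2.67 ± 0.37). The antioxidant enzyme gene SOD2 rose with S100A4 (2.02 ± 0.25) and the caspase inhibitor CFLAR with both proteins (0.79 ± 0.12). PTGS2 rose (2.35 ± 0.62) and the interferon regulatory factor IRF1 fell (−0.79 ± 0.15) with PDGF-BB, where CCL2 passed with the block only (1.40 ± 0.49).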

How the data were processed

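RNA was sequenced from 12 cultures (TruSeq libraries, single reads of 100 nt, per the labels). The authors deposited raw, unnormalized counts per Ensembl gene. Per the submitters' processing notes CASAVA 1.8.2, STAR 2.4, featureCounts 1.4.6 and build Sscrofa11.1 were used; the sources used here do not give the settings, strand use or annotation release. Samples were grouped by their titles. No sample column was left out.

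Symbols matched 14572 of 21153 identifiers. Genes were kept by filterByExpr (minimum count of 10, by group) and scaled by TMM. The main test was edgeR 4.0.16 (quasi-likelihood, two-sided, R 4.3.3) over all 12 libraries with the 4 group means, for 7 comparisons, adjusted by Benjamini-Hochberg over 12444 genes. SE is the log2 change divided by the root of F. Log2 CPM used a prior count of 2. At the lowest total 1 CPM stands for 21.5 counts.

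Replicate numbers 1 to 3 recur in each group. Deviations from group means correlated at 0.746 to 0.908 in 18 same-numbered pairs of libraries and at −0.676 to 0.136 in 36 others, so numbers were taken as pairing; the labels do not say what a number marks. The common coefficient of variation was 27.2% unpaired and 5.14% with the replicate block. Since no label names the animal of a library, a p-value reflects only how these libraries vary, which may be technical. No pair of libraries within a group was identical within counting noise (chi-square per gene 22 to 159).

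Alternatives were DESeq2 1.42.0, limma-voom (limma 3.58.1), RLE and upper-quartile scaling, no filter, stricter filtering (mean of 5 CPM or more, and 1 CPM in 3 libraries), only the groups compared, the block, and libraries left out. On simulated counts for S100A4 against control (12368 genes), 77% of genes changed by 1 on the log2 scale and 90% changed by 2 were recovered unpaired, with 0 unchanged genes called, and 100% of both were recovered with the block, with 15 unchanged genes called. These counts were drawn with replicate effects and with the spread of the fit with the block. The rates therefore cannot show which fit suits the real data. Changed genes were taken only from those with higher counts.

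The genes, lists and tests were chosen with earlier results of these data known. All 10 genes are named throughout; from each list up to 4 genes per comparison with control with the smallest adjusted p are named, called or not. Sequences were not used here.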

Additional observations from a re-analysis of the deposited data

Results flagged for a closer look

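The S100A4 effect on RELB was smaller in the presence of PDGF-BB than in its absence, by the interaction term with the replicate block (−0.61 ± 0.10, adjusted p = 0.0399). That call ended once replicate 1 or replicate 3 of all groups was left out. In pairs of the same replicate number the difference of the effects was −0.65, −0.40 and −0.81, negative in 3 of 3. The unpaired test did not pass (−0.62 ± 0.12, adjusted p = 1), and no tested gene passed in that fit.

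The PDGF-BB effect on REL had opposite directions with and without S100A4. PDGF-BB+S100A4 was below S100A4 in 3 of 3 pairs (−0.25 ± 0.06 with the block), and PDGF-BB was above control in 3 of 3 (0.23 ± 0.07 with the block). The test of the difference itself did not pass (−0.48 ± 0.09 with the block, adjusted p = 0.072).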

How the results depend on the processing

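In the unpaired fit 2732 of all tested genes were called for PDGF-BB+S100A4 against control, 70 for S100A4 against control and 1830 for PDGF-BB against control. The same fit called 34 for PDGF-BB+S100A4 against PDGF-BB, 1862 for PDGF-BB+S100A4 against S100A4, 1382 for S100A4 against PDGF-BB and 0 for the interaction. Counts below are of the 10 genes called, unless given over all tested genes. With the replicate block, which treats equal replicate numbers as pairs, they were 10 for S100A4 against control, 9 for PDGF-BB against control, 10 for PDGF-BB+S100A4 against PDGF-BB, 6 for PDGF-BB+S100A4 against S100A4 and 1 for the interaction; the block ended none of the calls of the unpaired fit. Over all tested genes the block called 1336, 6075, 888, 5948 and 14 in these comparisons. With the block and without replicate 1, 2 or 3, the counts were 10 in each case for S100A4 against control, 7 for PDGF-BB against control, 10 for PDGF-BB+S100A4 against PDGF-BB, 6 for PDGF-BB+S100A4 against S100A4, and 0 to 2 for the interaction. Over all tested genes they were 608 to 1055, 4372 to 5522, 326 to 1306, 4009 to 5904 and 1 to 117. DESeq2 called 10 for S100A4 against control and 1 for the interaction, beside 205 and 1 over all 12444 tested genes. Fits of only the groups compared called 3 for PDGF-BB+S100A4 against PDGF-BB and 0 for PDGF-BB+S100A4 against S100A4 (4 at an unadjusted p under 0.05, and 3 with DESeq2), and have fewer samples to estimate spread. Over all tested genes these fits called 9 of 12015 and 998 of 12007. Leaving out libraries from the unpaired fit gave 7 to 8 for PDGF-BB+S100A4 against control, 0 to 7 for S100A4 against control, 0 to 4 for PDGF-BB against control, 0 to 6 for PDGF-BB+S100A4 against PDGF-BB, 0 to 3 for PDGF-BB+S100A4 against S100A4 and 0 to 7 for S100A4 against PDGF-BB. Over all genes these ranges were 502 to 3349, 0 to 82, 131 to 2139, 0 to 39, 10 to 2507 and 5 to 1808. Limma-voom kept every count of the 10 genes. Signs turned only where the change was close to 0. BIRC3 in S100A4 against PDGF-BB became 0.00564 with DESeq2, 0.00569 with RLE, 0.0238 with upper-quartile scaling, 0.0105 with the stricter filter, 0.0594 with the block without replicate 3, and −0.0734 to 0.0594 with libraries left out. RELA in PDGF-BB against control became −0.0363 with upper-quartile scaling, −0.00127 with the stricter filter, −0.00913 with the block without replicate 1, and −0.0227 to 0.0647 with libraries left out. Leave-out ranges were −0.0948 to 0.0483 for RELA and −0.176 to 0.101 for TNFAIP3 in PDGF-BB+S100A4 against S100A4, and for the interaction −0.227 to 0.0349 (NFKB1), −0.125 to 0.0368 (NFKB2) and −0.108 to 0.0332 (RELA). The cause of these differences was not tested. Upper-quartile scaling moved the median of all genes to −0.0979 for PDGF-BB+S100A4 against control. Each of the 10 genes had at least 271 counts in every library.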

Other observations

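Averaged over the 4 groups, replicate 2 was the highest of the replicate numbers for 7 of the 10 genes and the lowest for RELA, RELB and NFKBIE. NFKBIZ averaged 66.9, 109 and 77.9 CPM over the 4 groups in replicates 1, 2 and 3, and replicate 2 was the highest of its group in all 4 groups. TNFAIP3 (63.1, 84.0 and 60.4 CPM) and NFKBIA (77.5, 91.0 and 78.1 CPM) were also highest in replicate 2, while RELA was lowest there (180, 166 and 193 CPM). BIRC3 (166, 171 and 161 CPM) and RELB (54.3, 51.7 and 53.8 CPM) varied little. These are averages of 4 libraries each, 1 per treatment, and were not tested.

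Once the mean of each replicate number was removed, profiles of pairs among the 10 genes correlated over the 12 libraries at r = 0.122 to 0.994, with the same 4 treatments behind every value. NFKB2 and TNFAIP3 were the most alike (r = 0.994), followed by RELB and NFKBIE (r = 0.984) and RELA and NFKBIA (r = 0.983). The least alike were NFKBIZ and BIRC3 (r = 0.122) and NFKB1 and NFKBIZ (r = 0.399).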
